A study of Homo sapiens with 4 samples.

Results

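Transcripts of LCK and 6 other Src-family kinases (SRC, FYN, YES1, LYN, FGR and FRK) were followed in PC3 prostate cancer cells, as 7 of the 43622 genes in the expression table. LCK was chosen by its measured values, a high level after MLN4924 in PC3 cells and a low level after the same drug in p14ARF-depleted cells, so its levels are given as a description, with no test. The other 6 were taken as members of the same kinase family. PC3 is an established line from a human prostatic adenocarcinoma, MLN4924 inhibits NEDDylation, the attachment of the ubiquitin-like protein NEDD8, and p14ARF is a tumor suppressor protein encoded by CDKN2A. The study asked which transcriptional responses to MLN4924 depend on p14ARF, and RNA was sequenced after 3 days. PC3 cells labelled wt received DMSO (Ctrl) or 1 µM MLN4924 (MLN), and PC3-shp14ARF cells, labelled Sh ARF, received DMSO (shARF) or 1 µM MLN4924 (Both), with 3 libraries in each condition. The deposited record is not uniform here, since the treatment protocol gives 1 µM and the study's methods a short hairpin RNA (shRNA), whereas the series description gives 1 mM and calls the p14ARF line a knockout. The depleted cells were a stable population made with a retroviral shRNA and Hygromycin B selection. No control shRNA is named for the wt cells, so effects of transduction and selection cannot be told apart from those of the depletion. The study's text does not say whether libraries of one condition were separate cultures, and p-values measure only the spread between them, which may be technical.

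Src-family kinases are non-receptor tyrosine kinases anchored at the inner face of the plasma membrane. They hold an SH3, an SH2 and a kinase domain, and phosphorylation of a tyrosine in the C-terminal tail by CSK keeps them closed, while removal of that phosphate and binding of partners open them. SRC, FYN and YES1 are made in most tissues and relay signals from integrins and growth factor receptors. LYN and FGR are known mainly from myeloid and B cells, FRK from epithelia, and LCK from T cells, where it phosphorylates the T cell receptor chains and ZAP70.

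LCK lies on the plus strand of chromosome 1, from 32251244 to 32286165 of GRCh38, and is transcribed from 2 promoters. In the GENCODE annotation, 7 of its 14 transcripts start in the distal region and 7 in the proximal region or beyond it. The latter include LCK-214 and LCK-208, which start further into the gene, at 32275410 and 32275620. The deposited values are summed per gene, so use of these promoters was not measured. Both promoters are shown because LCK was the member with the largest fold between conditions. Each sequence is the 250 bases before the annotated start (RefSeq, GRCh38.p14, plus strand), and the capitals mark the letters CAGGAAGT, an ETS-type motif. The distal window is chr1:32251015-32251264 and the proximal one chr1:32273871-32274120.
LCK distal: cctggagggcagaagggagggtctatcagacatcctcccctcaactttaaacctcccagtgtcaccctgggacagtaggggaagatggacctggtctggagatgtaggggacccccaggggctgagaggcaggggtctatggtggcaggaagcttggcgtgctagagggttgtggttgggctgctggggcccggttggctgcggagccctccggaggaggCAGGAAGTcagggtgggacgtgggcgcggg
LCK proximal: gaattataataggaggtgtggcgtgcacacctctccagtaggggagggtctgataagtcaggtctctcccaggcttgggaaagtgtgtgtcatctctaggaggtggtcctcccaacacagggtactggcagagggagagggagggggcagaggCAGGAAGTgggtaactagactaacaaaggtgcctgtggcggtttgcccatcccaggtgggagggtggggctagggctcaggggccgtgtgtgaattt
The motif began 30 bases before the distal start and 97 bases before the proximal start. It was searched on both strands of the 250 bases before each annotated start, and was picked after the sequences had been seen. It occurred in 913 of 35116 RefSeq promoters (2.6%) and in 3 of 10 windows of the members, the remaining one being that of FRK. The longest run that both LCK windows shared was GAGGCAGGAAGT. It was picked for being shared, and 15 of the 35116 promoters held it, both LCK windows among them. An AP-1 motif (TGANTCA, in 6.57% of promoters) was found in 0 of the 10 windows, which says only that these letters were absent there. The degenerate NF-kB consensus, in its broad form set after a narrower one had been searched, occurred in 6.88% of promoters and in 2 of the 10 windows, those of the LCK distal promoter, 144 bases before the start and apart from the ETS-type letters, and of YES1. These matches are descriptions of sequence, not sites shown to be bound. The 10 windows came from LCK (2), FYN (4), FGR (2), YES1 (1) and FRK (1).

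The labels were checked first on CDKN2A, whose transcript was lowered but not lost in the depleted cells. CDKN2A was between 177 and 190 TPM in Ctrl, 100 and 133 in MLN, 58.2 and 60.9 in shARF, and 41.2 and 54.0 in Both. It was lower in shARF than in Ctrl (CDKN2A, log2 difference −1.63, adjusted p = 2.24e-05) and in Both than in MLN (−1.31, adjusted p = 0.00188, limma). These values count p14ARF and p16INK4a transcripts together. The epithelial keratins KRT8 (90.6 TPM in Ctrl), KRT18 (235) and KRT19 (562) were abundant, while the prostate marker KLK3 was listed at 0 in each library. STAT3, which PC3 cells are known to lack, was at or under 0.0355 TPM in each library. TPM values are per transcript length and sum to the same total in each library, and they carry no depth.

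LCK was a low transcript in Ctrl, at 1.92, 2.20 and 1.77 TPM in its 3 libraries. In MLN it reached 19.7, 21.7 and 21.8 TPM, and the mean was 10.8-fold that of Ctrl. Every MLN library lay above every other library of the study. In shARF, LCK was at 0.471, 0.698 and 1.09 TPM, below each Ctrl library. MLN4924 in the depleted cells brought it to 3.63, 2.55 and 3.11 TPM in Both, a mean 4.10-fold that of shARF and above each Ctrl library. The MLN mean was 6.81-fold that of Both. LCK was thus higher with the drug in either cell population and lower with the shRNA with or without the drug.

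On the log2(TPM + 0.1) scale, which understates the differences of low genes, LCK was 3.36 higher in MLN than in Ctrl (standard error 0.10) and 1.95 higher in Both than in shARF (standard error 0.30). The difference between these responses, the interaction, was −1.41 (standard error 0.32). Between shARF and Ctrl the difference of LCK was −1.33 (standard error 0.30), and between Both and MLN it was −2.74 (standard error 0.14). A pseudocount of 1 TPM moved the differences that involve the low shARF libraries by over 1.5 times, to −0.77 in shARF vs Ctrl and 1.23 in Both vs shARF.

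FYN, which relays integrin and growth factor receptor signals as SRC does, lies on chromosome 6 from 111660332 to 111873452 (minus strand, GRCh38). It was the member with the clearest change of level besides LCK. It was at 22.5, 19.3 and 21.3 TPM in Ctrl and at 9.80, 11.3 and 10.5 TPM in MLN. In shARF it was at 7.69, 7.51 and 7.62 TPM, and in Both at 9.56, 10.5 and 10.8 TPM. The Ctrl libraries stood above all others, and those of MLN and Both overlapped. FYN fell after MLN4924 in PC3 cells (log2 difference −0.99, standard error 0.085, adjusted p = 0.00016, limma) and fell with the shRNA (−1.45, standard error 0.064, adjusted p = 0.00013). MLN4924 raised it in the depleted cells (FYN, 0.43, standard error 0.067, adjusted p = 0.00205). The response to the drug therefore had opposite signs in the 2 cell populations, with an interaction of 1.42 (FYN, standard error 0.12, adjusted p = 4.84e-06), past the threshold under 19 of 19 alternative settings. No difference was detected between Both and MLN (FYN, −0.04, standard error 0.085, adjusted p = 0.787).

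SRC, the founding member of the family and the most abundant here, lies on chromosome 20 from 37344685 to 37406050 (plus strand, GRCh38). It was at 161, 135 and 135 TPM in Ctrl and 144, 174 and 175 in MLN, against 159, 159 and 172 in shARF and 168, 164 and 154 in Both. The libraries of all conditions overlapped in a range from 135 to 175 TPM. No pairwise difference of SRC passed the test, with log2 differences between −0.02 and 0.19. The difference between shARF and Ctrl was 0.19 (standard error 0.085, adjusted p = 0.139), and without Ctrl replicate 1 it was 0.27 and passed (SRC, adjusted p = 0.015).

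YES1, a close relative of SRC on chromosome 18 from 721588 to 812546 (minus strand), was at 81.6, 78.2 and 84.6 TPM in Ctrl, 78.3, 84.0 and 80.1 in MLN, 80.9, 80.1 and 76.8 in shARF, and 87.7, 99.5 and 82.1 in Both. Its highest libraries were in Both, where the level was above each shARF library. Its log2 differences lay between −0.04 and 0.18, and none passed the test. The largest of them, Both vs shARF, was 0.18 (YES1, standard error 0.075, adjusted p = 0.0906), and it passed with median-of-ratios scaling (0.27, adjusted p = 0.0121), with the 12 libraries in one fit (adjusted p = 0.0396) and without Both replicate 4 (0.24, adjusted p = 0.0336), while without Both replicate 3 it was 0.098 (adjusted p = 0.131).

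LYN, a kinase with both activating and inhibitory roles in leukocyte signalling, was at 2.32, 2.25 and 2.14 TPM in Ctrl and at 1.74, 1.63 and 1.44 TPM in MLN. It was at 0.687, 0.779 and 0.693 TPM in shARF and 0.533, 0.688 and 0.331 TPM in Both. All libraries of the depleted cells were below all libraries of the wt cells, with or without the drug. LYN fell with the shRNA in DMSO (log2 difference −1.51, standard error 0.11, adjusted p = 0.000566, limma) and under MLN4924 (−1.50, standard error 0.26, adjusted p = 0.00854). At a pseudocount of 1 TPM these differences were −0.91 and −0.78. The lower level in MLN than in Ctrl passed as well (LYN, −0.46, standard error 0.13, adjusted p = 0.0234). Over all 14 alternative settings the adjusted p of that difference lay between 0.00745 and 0.227, and the call was lost in 6. These were the 12 libraries in one fit (0.0838), a replicate block (0.227), and omission of Ctrl replicate 1 (0.0623), Ctrl replicate 2 (0.0588), MLN replicate 2 (0.0535) or MLN replicate 5 (0.0597). Both and shARF were not told apart (LYN, −0.45, standard error 0.26, adjusted p = 0.186), and the value was −0.21 without Both replicate 4 and −0.65 without Both replicate 3.

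FRK, a kinase known from epithelia, lies on the minus strand of chromosome 6 from 115931149 to 116060891. It was at 4.23, 3.28 and 3.43 TPM in Ctrl and 4.25, 3.75 and 3.94 TPM in shARF. With MLN4924 it was at 2.19, 1.91 and 1.89 TPM in MLN and 2.07, 2.10 and 1.70 TPM in Both. The drug-treated libraries of either cell population were below all DMSO libraries. FRK fell in PC3 cells (log2 difference −0.83, standard error 0.14, adjusted p = 0.00293, limma) and in PC3-shp14ARF cells (−0.99, standard error 0.13, adjusted p = 0.000855). No effect of the shRNA on FRK was detected in DMSO (0.13, adjusted p = 0.46) or under the drug (−0.03, adjusted p = 0.899), and the 2 responses to the drug were not told apart (FRK, interaction −0.16, adjusted p = 0.599).

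FGR, on chromosome 1 from 27612064 to 27635185 (minus strand), was listed at 0 in 11 of the 12 libraries and at 0.0431 TPM in Ctrl replicate 2, so it was left out of the tests. BLK, a member of the family known from B cells, was also low, at or under 0.125 TPM in each library. PTK6, a relative of the family known from epithelia, was at 30.7 ± 2.76 TPM (SD, n = 3) in Ctrl and 19.5 ± 1.45 in MLN, against 17.9 ± 2.96 in shARF and 11.3 ± 0.654 in Both. It fell with the drug in PC3 cells (PTK6, −0.66, adjusted p = 0.00105) and was lower in Both than in MLN (−0.77, adjusted p = 0.00177).

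**Figure D1:**
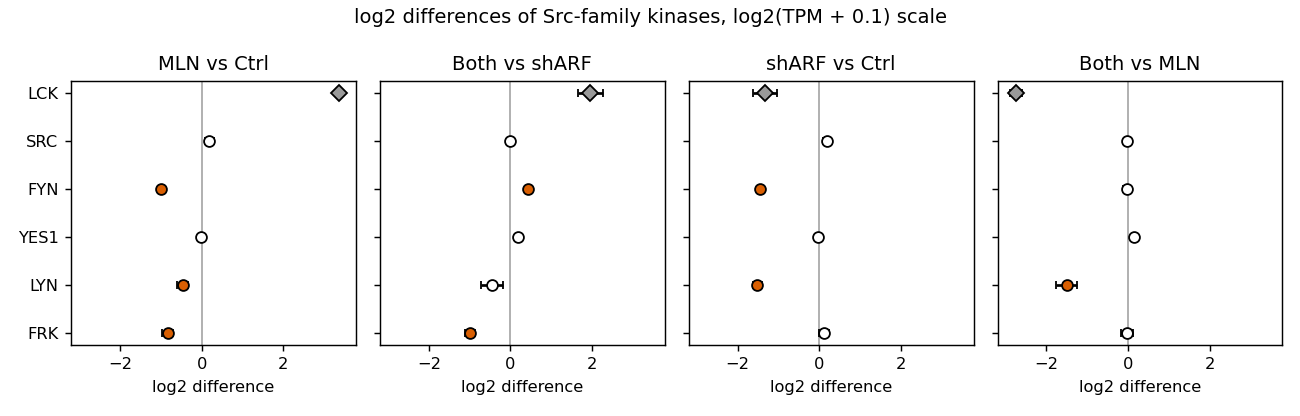
Differences of 6 Src-family kinases on the log2(TPM + 0.1) scale in 4 comparisons, with standard errors as horizontal bars (n = 3 libraries per condition); filled circles passed an adjusted p below 0.05, open circles did not, and the grey diamonds of LCK carry no test. LCK was at 3.36 in MLN vs Ctrl and −2.74 in Both vs MLN, and the other members lay between −1.51 and 0.43.

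Of the 5 members with a test, 3 (FYN, LYN and FRK) were called in MLN vs Ctrl, all lower. Over the 19932 genes tested, 61.6% were called in that comparison, 32.2% higher and 29.4% lower. In shARF vs Ctrl 2 of the 5 (FYN and LYN) were called, both lower, where 41.4% of all genes were called, 21.0% higher and 20.4% lower. In Both vs shARF FYN was called higher and FRK lower, where 61.0% of all genes were called, 28.3% higher and 32.8% lower. In Both vs MLN only LYN was called among the 5, as lower, and the background was 32.4%, with 11.8% higher and 20.6% lower. The interaction was called for FYN, above 0, where 28.3% of all genes were called, 11.2% above and 17.1% below 0. With so large a share of all genes called, nothing particular to the members is read from these counts.

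The order of the levels, which TPM allows to be set side by side, began with SRC and YES1 in every condition. In Ctrl it went on with FYN, FRK, LYN and LCK, and the ranges of LYN and LCK overlapped, with LCK in Ctrl replicate 2 (2.20 TPM) inside the range of LYN. In MLN, LCK followed YES1 and stood above FYN, FRK and LYN, and its range was apart from both neighbours. In shARF it shared the last detected place with LYN, their ranges overlapping. In Both, LCK stood below FYN and above FRK. The summed level of the 7 kinases was 254 ± 17.6 TPM (SD, n = 3) in Ctrl and 280 ± 21.5 in MLN, against 256 ± 5.82 in shARF and 268 ± 14.2 in Both. LCK made up 0.776 ± 0.119% of this sum in Ctrl and 7.53 ± 0.165% in MLN, against 0.294 ± 0.116% in shARF and 1.16 ± 0.223% in Both. FYN made up 8.27 ± 0.277%, 3.77 ± 0.125%, 2.98 ± 0.069% and 3.86 ± 0.382% in the same order. In MLN, therefore, LCK took a larger share of Src-family transcripts than FYN, while SRC and YES1 together kept most of the sum.

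Of the 14662 genes that averaged 1 TPM or more, those whose log2 level followed LCK most closely over the 12 libraries were USP35 (Pearson r = 0.990), ARSI (0.988), ELOVL4 (0.987), THEMIS2 (0.986) and MAP1LC3A (0.984). The points share 4 conditions, so these values describe a common order of conditions. ARSI averaged 1 TPM or more only through MLN, where it was at 3.25 TPM. Elsewhere ARSI was at 0.420 TPM in Ctrl, 0.144 in shARF and 0.895 in Both. ELOVL4, a fatty acid elongase, was at 14.7 TPM in Ctrl and 41.0 in MLN, against 9.38 in shARF and 17.8 in Both. THEMIS2, an adaptor of B cell and macrophage signalling, was at 5.44, 32.8, 2.77 and 6.49 TPM in that order, and MAP1LC3A, an LC3 protein of autophagosomes, at 8.09, 32.2, 4.25 and 11.8 TPM. The other Src-family kinases did not share this pattern, with r of 0.33 for LYN, 0.19 for SRC, 0.07 for FYN, 0.01 for YES1 and −0.77 for FRK.

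The surroundings of LCK hold 21 further annotated genes within 100 kb, of which 13 were in the table and 11 averaged 1 TPM or more (KPNA6, TXLNA, CCDC28B, IQCC, TMEM234, EIF3I, FAM167B, HDAC1, MARCKSL1, FAM229A and BSDC1). In MLN vs Ctrl, 5 of the 11 were called higher and 3 lower, where 36.2% and 35.5% of all 14663 genes that averaged 1 TPM or more, LCK included, were, with log2 differences between −1.10 and 1.16, all smaller than the 3.36 of LCK. Between Both and MLN, 0 were called higher and 7 lower (14.3% and 24.0% of those genes), between −1.45 and 0.09. FAM167B, which ends 2388 bases before LCK, was at 14.6 ± 0.714 TPM (SD, n = 3) in Ctrl and 17.0 ± 2.59 in MLN, against 36.0 ± 6.42 in shARF and 6.11 ± 0.120 in Both. Unlike LCK it was higher in shARF than in Ctrl (FAM167B, 1.29, adjusted p = 0.00174) and fell after the drug in the depleted cells (−2.52, adjusted p = 2.46e-05). HDAC1, a histone deacetylase gene that begins 5918 bases after LCK, was at 222 ± 2.72 TPM in Ctrl and 163 ± 13.8 in MLN, against 276 ± 7.49 in shARF and 122 ± 2.73 in Both. It fell after the drug in both cell populations (HDAC1, −0.45 with adjusted p = 0.00165, and −1.18 with adjusted p = 5e-06, limma), where LCK was higher.

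LCK is best known from T cells, and the other components of T cell receptor signalling were examined beside it. Of 23 listed genes, 15 had a mean under 0.1 TPM and 3, the receptor constant regions TRAC, TRBC1 and TRBC2, were listed at 0 in all 12 libraries. CD3E, CD3G, CD4, CD2 and ZAP70 were at or under 0.0945 TPM in each library. CD3D was detected in MLN replicates 1 and 5 (0.794 and 0.974 TPM) and in Both replicate 3 (0.164), and listed at 0 elsewhere. CD247, a signalling chain of the receptor, averaged 0.333 TPM in Both and at most 0.0866 TPM in the other conditions. CD3D and CD247 passed the 0.1 TPM filter only through the condition where they were high. In this and the following lists, therefore, only genes that averaged 1 TPM or more over the 12 libraries were counted, beside the share called among the 14663 genes of that level. Of 5 such genes in the T cell list, 3 rose in MLN vs Ctrl and 0 fell (36.2% and 35.5% of genes of that level). SH2D2A, an adaptor that binds LCK, rose from 8.13 ± 0.683 to 29.2 ± 4.19 TPM (SD, n = 3, log2 difference 1.83, adjusted p = 5.7e-05, limma). In Both vs MLN, 0 of the 5 were higher and 3 were lower (14.3% and 24.0%), among them the non-receptor tyrosine kinase TXK (−1.03, adjusted p = 0.00465).

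The summed level of the T cell list ranged from 18.3 to 21.8 TPM in Ctrl, 46.6 to 51.7 in MLN, 13.5 to 15.9 in shARF and 28.4 to 33.9 in Both. Most of its difference between Ctrl and MLN came from SH2D2A, while TXK was at 3.37 TPM in Ctrl and 3.49 in MLN. The sum of 11 other leukocyte markers was 212 to 267 TPM in Ctrl, 446 to 615 in MLN, 115 to 145 in shARF and 311 to 354 in Both, most of it from the lysosomal gene CD68. PTPRC, the leukocyte phosphatase CD45, which dephosphorylates LCK, was at or under 0.0726 TPM in DMSO libraries and between 0.252 and 0.322 TPM in drug-treated ones, through which alone it passed the filter. LYZ, a lysozyme gene, fell in MLN vs Ctrl (LYZ, −2.84, adjusted p = 3.19e-05, limma). CD79A, a B cell receptor chain, was at 0.335 TPM in Ctrl and 2.06 in MLN, against 0.419 in shARF and 1.39 in Both. It averaged 1 TPM or more only through the drug-treated libraries, so it is given without a test. CD68 was lower in Both than in MLN (CD68, −0.72, adjusted p = 0.0129), a call lost without MLN replicate 2 (−0.65, adjusted p = 0.0553). The part of these markers in the level of LCK was not tested.

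Genes that restrain Src-family kinases were examined next. Of 13 listed, 7 averaged 1 TPM or more, and in MLN vs Ctrl 5 of these rose and 0 fell, a total share near the 71.6% called over genes of that level (36.2% higher and 35.5% lower), with a median log2 difference of 0.61 against 0.02. SOCS1, a suppressor of cytokine signalling, rose from 2.25 ± 0.711 to 4.88 ± 1.00 TPM (SD, n = 3, log2 difference 1.11, adjusted p = 0.0106, limma), and PAG1, the membrane anchor of CSK, rose from 2.09 ± 0.194 to 3.52 ± 0.445 TPM (0.72, adjusted p = 0.00536). CSK itself, the kinase of the inhibitory tail tyrosine, was at 44.3 TPM in Ctrl and 56.6 in MLN, against 65.0 in shARF and 59.8 in Both. Of the 7, 0 were higher and 3 lower in Both vs MLN (14.3% and 24.0% of genes of that level), among them the adaptor DOK1 (−1.52, adjusted p = 0.00178) and SOCS3 (−1.20, adjusted p = 0.000294). In shARF vs Ctrl 1 was higher and 4 lower (26.1% and 24.2%).

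Of 10 phosphatases that act on these kinases or their partners, 8 averaged 1 TPM or more, and 2 of these rose and 5 fell in MLN vs Ctrl, where 36.2% and 35.5% of genes of that level did. PTPRA, which removes the inhibitory tail phosphate of SRC and FYN, fell from 89.6 ± 4.45 to 39.2 ± 1.72 TPM (SD, n = 3, log2 difference −1.19, adjusted p = 1.91e-05, limma), and PTPN2 from 25.6 ± 1.19 to 12.1 ± 0.786 TPM (−1.08, adjusted p = 5.21e-05). Between Both and MLN, 2 were higher and 3 lower (14.3% and 24.0%). PTPN11, the phosphatase SHP2, was higher (0.65, adjusted p = 0.00132), and PTPN6, the phosphatase SHP1, was lower (−0.98, adjusted p = 0.0053).

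Of 20 receptors, scaffolds and activators upstream of the kinases, 16 averaged 1 TPM or more, and 5 of these rose and 9 fell in MLN vs Ctrl, beside 36.2% and 35.5% of genes of that level. ITGB4, the integrin beta chain of hemidesmosomes, fell from 64.5 ± 13.7 to 11.4 ± 1.62 TPM (SD, n = 3, adjusted p = 7.27e-05, limma). PDGFRA, a receptor for platelet-derived growth factors, was at 8.66 ± 0.692 TPM in Ctrl and 2.55 ± 0.278 in MLN, against 1.29 ± 0.163 in shARF and 0.373 ± 0.110 in Both. It fell in MLN vs Ctrl (PDGFRA, −1.73, adjusted p = 6.61e-05) and in Both vs MLN (−2.51, adjusted p = 0.00129, or −1.37 at a pseudocount of 1 TPM). In Both vs MLN 0 of the 16 were higher and 9 lower (14.3% and 24.0%), with a median log2 difference of −0.35 against −0.06 over genes of that level, FGFR1 among them (−1.05, adjusted p = 0.000557). In shARF vs Ctrl 3 were higher and 10 lower (26.1% and 24.2%).

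Of 24 substrates and adaptors, 22 averaged 1 TPM or more, and 5 of these rose and 12 fell in MLN vs Ctrl (36.2% and 35.5% of genes of that level), with a median log2 difference of −0.62 against 0.02. PTK2, the focal adhesion kinase that SRC binds and phosphorylates, fell from 48.7 ± 1.88 to 11.5 ± 0.407 TPM (SD, n = 3, adjusted p = 3.59e-06, limma). TNS3, a tensin of focal adhesions, fell from 49.8 ± 6.48 to 12.7 ± 1.25 TPM (−1.96, adjusted p = 4.22e-05). Of the 22, 3 were higher and 7 lower in Both vs MLN (14.3% and 24.0%), and 6 were higher and 4 lower in shARF vs Ctrl (26.1% and 24.2%). VAV3, a guanine nucleotide exchange factor, was higher in Both (1.22, adjusted p = 0.000398) and PTK2B, the relative of PTK2, lower (−1.66, adjusted p = 0.00262, or −0.81 at a pseudocount of 1 TPM). PTK2 was at 45.4 ± 0.725 TPM in shARF and 20.2 ± 0.781 in Both.

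Other non-receptor tyrosine kinases gave a comparison for the family. Of 23 listed, 16 averaged 1 TPM or more, and 4 of these rose and 7 fell in MLN vs Ctrl (36.2% and 35.5% of genes of that level), with a median log2 difference of −0.17 against 0.02. ABL2, a relative of ABL1, rose from 5.65 ± 0.479 to 23.1 ± 1.12 TPM (SD, n = 3, log2 difference 2.01, adjusted p = 1.28e-05, limma), and it averaged 4.38 ± 0.0544 TPM in shARF and 18.6 ± 1.95 TPM in Both. In Both vs MLN 1 was higher and 7 lower (14.3% and 24.0%). TNK1, a kinase of the ACK family, was lower in Both than in MLN (−2.41, adjusted p = 0.000366), and was at 6.06 ± 1.24 TPM in Ctrl and 6.76 ± 0.767 in MLN, against 1.88 ± 0.273 in shARF and 1.19 ± 0.0679 in Both.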

How the data were processed

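The authors sequenced total RNA of PC3 cells, trimmed and mapped the reads to hg38 in CLC Genomics Workbench, quantified them on an Ensembl GRCh38 annotation, and deposited TPM values per gene for 12 libraries, 3 per condition. Strandedness is not given in the sources used here, so LCK, LYN, FRK and YES1, which overlap annotated non-coding genes, are as the authors counted them. Read depth is unknown from TPM. Columns were matched to conditions by name, and 0 columns were left unmatched. Here log2(TPM + 0.1) of the 19932 genes that averaged 0.1 TPM or more entered limma (version 3.58.1, R 4.3.3, lmFit and eBayes with trend) in pairwise fits, with Benjamini-Hochberg adjustment over all genes. The interaction was fitted to 12 libraries. The fits were tested on simulated data.

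The members and gene lists were chosen with earlier results of these data known. Genes named from a list are those averaging 1 TPM or more with the largest called differences, 2 in MLN vs Ctrl and 2 in Both vs MLN; CSK, CD3D, PTPRC, STAT3 and others named only by level were added after their values were seen. From the epithelial and prostate list, KRT19 (−1.58) was named in MLN vs Ctrl, and CDH1 (−0.75) and EPCAM (−0.51, not called without MLN replicate 5, adjusted p = 0.0534, or Both replicate 2, 0.0552) in Both vs MLN. Some genes of this rule are not reported here but stay in the counts and sums. Counts over the lists take genes averaging 1 TPM or more, from the same fits, a choice made after seeing the data. Coordinates are from GENCODE on GRCh38, another release than the authors' annotation, and promoters from RefSeq. Alternatives were pseudocounts of 1 and 0.01, a joint fit of the 12 libraries, eBayes without trend, a filter at 1 TPM or none, scaling by the median of ratios, a block on the replicate number, and omission of each library. For genes outside the family these were run after seeing the data.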

Additional observations from a re-analysis of the deposited data

Results flagged for a closer look

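The response of FYN to MLN4924 differed between the 2 cell populations. On the log2 scale it was −0.99 in MLN vs Ctrl, 0.43 in Both vs shARF, and the test of the difference gave 1.42 (standard error 0.12, adjusted p = 4.84e-06, limma interaction over 12 libraries). FYN was lower in each MLN library than in each Ctrl library and higher in each Both library than in each shARF library. The smallest and largest interactions under the alternative settings were 1.32 and 1.51.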

How the results depend on the processing

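Of 929 tested differences recomputed under alternative settings, 873 kept their direction and their side of the threshold; of 165 counts, 123 did not change and 159 stayed within 1.5 times, and LCK, which has no test, kept its sign in 75 of 75. The library numbers did not pair the samples (correlations of deviations between −0.05 and 0.02). With a replicate block, 1 member was called in MLN vs Ctrl (28.6% of all genes) and 0 in shARF vs Ctrl (2 at an unadjusted p under 0.05, with 0 genes called in the whole table), and CDKN2A in shARF vs Ctrl was −1.65 (adjusted p = 0.0607). The block also gave YES1 0.023 in MLN vs Ctrl and FRK 0.053 for the interaction. It ended the calls of FRK, PTK6, SOCS1, PAG1 and HDAC1 in MLN vs Ctrl and of FAM167B and HDAC1 in shARF vs Ctrl. Both vs shARF and Both vs MLN share 1 number each, so their block was fitted over the 12 libraries, a choice made after seeing the data. It called 3 members in Both vs shARF, with YES1 added at 0.23 (adjusted p = 0.0327), and 1 in Both vs MLN, and gave SRC 0.069 and 0.085 in these comparisons and FRK 0.159 in Both vs MLN. Median-of-ratios scaling, which moved the median of all genes by at most 0.09, called 2 members in Both vs MLN and 2 for the interaction, with YES1 added at 0.24 (adjusted p = 0.0317) and 0.28 (adjusted p = 0.0216). It turned SRC to 0.084 in Both vs shARF and 0.076 in Both vs MLN, FYN to 0.056 and FRK to 0.058 in Both vs MLN, and called 17 of 22 substrates and adaptors in shARF vs Ctrl (10 without it), with 43.1% of all genes called (41.4% without it). At a pseudocount of 1, LCK was at 2.90 in MLN vs Ctrl and −2.44 in Both vs MLN. At a pseudocount of 0.01 the interaction of LYN was −0.046. With each library left out, values of members that were not called changed sign: YES1 in MLN vs Ctrl lay between −0.041 and 0.017, SRC in Both vs shARF between −0.038 and 0.027, SRC in Both vs MLN between −0.109 and 0.034, FYN in Both vs MLN between −0.087 and 0.016, FRK in Both vs MLN between −0.081 and 0.064, and the interaction of LYN between −0.19 and 0.246. Over all settings LCK stayed between 2.90 and 3.44 in MLN vs Ctrl, between −2.86 and −2.44 in Both vs MLN, and between −1.67 and −1.14 for the interaction. Depth, which TPM does not give, limits the values of FGR and BLK. The cause of these differences between settings was not tested.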
